A study of Mus musculus with 3 samples.

Results

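The chemokine ligands Ccl3, Ccl4, Ccl5 and Xcl1 and the receptors Ccr1 and Xcr1 were described across immune cells and melanoma cells of mouse tumors. These 6 genes were found by their symbols among the 32285 genes counted. Single-cell RNA sequencing had been run on tumors of B16-F10, a mouse melanoma cell line, grown in the skin of C57BL/6J mice aged 6 to 8 weeks. There were 3 libraries, and each pooled the tumors of 3 mice. The melanoma cells of 1 library carried a control short hairpin RNA (shCtrl), and those of the other two carried a different hairpin each against Mib2, a ubiquitin ligase (shMib2 replicates 1 and 2). Every tumor thus came from hairpin-bearing melanoma cells in hosts with their own immune cells, and differences between the 2 shMib2 libraries mix hairpin, pool and library.

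UMIs (unique molecular identifiers) count captured RNA molecules, and levels are in CPM, counts of the gene scaled to 1000000 UMIs of the summed cells, where printed intervals cover counting error only. The Mib2 transcript was not lower under the hairpins against it. Its level in B16-F10 cells was 2.44, 3.17 and 2.70 CPM, shCtrl first and shMib2 replicates 1 and 2 after it, so the libraries are named by label only. In what follows, sets of 3 values keep this order. Libraries held 8388 to 9558 barcodes and 190904274 to 243926188 UMIs, 6794 to 8143 cells per library were kept, and pairs of libraries shared 20 to 30 barcode sequences.

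CCL3 and CCL4 are inflammatory chemokines that attract monocytes, macrophages and T cells. CCL3 and CCL5 can signal through CCR1. XCL1 is made by NK cells and activated CD8 T cells and binds XCR1, a receptor carried by the conventional dendritic cells specialised in cross-presentation (cDC1). Activated lymphocytes and macrophages induce Ccl3 and Ccl4 together, while Ccl5 is kept at a high level by effector and memory lymphocytes.

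Cells were put into classes by clustering on genes that held no chemokine or chemokine receptor, and clusters were named from marker lists that held none either. The 6 genes could therefore not place a cell in its class. The T cell class held 80, 558 and 821 cells, with Cd3e at 301, 391 and 343 CPM. The NK cell class held 38, 309 and 464 cells, with Ncr1 at 261, 469.6 and 413 CPM and Cd3e at 0, 4.23 and 5.71 CPM. The 9 T cell markers summed to 1012, 872 and 862 CPM in it, beside 3052, 3546 and 3381 CPM for the 8 NK markers. What part this T cell marker RNA had in comparisons with NK cells was not tested. Mononuclear phagocytes numbered 7, 76 and 160, with Lyz2 at 1235, 7296 and 10575 CPM, conventional dendritic cells 1, 37 and 44 and plasmacytoid dendritic cells 10, 16 and 24. The shCtrl library was thus thin in every immune class. B cells (62, 77 and 126 cells) served as the background class. Melanoma RNA was present in every class: Dct, a melanin synthesis gene, read 342, 324 and 207 CPM in T cells.

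Ccl3, Ccl4 and Ccl5 lie close together on chromosome 11 of mm10, at 83647844 to 83649355 (minus strand), 83662584 to 83664683 (plus strand) and 83525778 to 83530518 (minus strand). Xcl1 lies on chromosome 1 at 164931644 to 164935527 (minus strand). Both receptor genes lie on chromosome 9, with Ccr1 at 123962124 to 123968692 and Xcr1 at 123852315 to 123862029, both on the minus strand. The promoters of Ccl3 and Xcl1 are shown because these ligands moved apart in the T and NK cell subsets below. Each is the 250 bases before the RefSeq start site on GRCm38.p6, at chr11:83649379-83649628 for Ccl3 and chr1:164935523-164935772 for Xcl1, read 5′ to 3′ on the minus strand. Capitals mark GGAAA, the core of motifs bound by NFAT, a factor of T cell activation, on either strand.
Ccl3: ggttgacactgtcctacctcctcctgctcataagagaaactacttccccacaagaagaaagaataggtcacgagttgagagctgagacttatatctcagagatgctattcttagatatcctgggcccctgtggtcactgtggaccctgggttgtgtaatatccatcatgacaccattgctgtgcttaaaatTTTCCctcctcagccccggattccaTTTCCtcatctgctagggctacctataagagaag
Xcl1: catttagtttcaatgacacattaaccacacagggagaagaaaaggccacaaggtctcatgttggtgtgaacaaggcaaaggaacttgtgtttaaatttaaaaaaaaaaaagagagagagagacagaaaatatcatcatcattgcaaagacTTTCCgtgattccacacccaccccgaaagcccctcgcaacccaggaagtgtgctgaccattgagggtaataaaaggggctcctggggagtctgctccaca
Ccl3 held 2 such matches, the nearer 34 bases from the start, and Xcl1 held 1, at 100 bases. At least 1 match occurred in 55.6% of 32851 mouse promoters of this length, so a match is common.

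The plot of the classes that held the UMIs shows which cells held each gene. T cells, NK cells and phagocytes held most Ccl3 and Ccl4 UMIs of the shMib2 libraries, with smaller parts in the S100a9/Cpa3 cluster described below and in B16-F10 cells. Plasmacytoid dendritic cells held 73, 88 and 337 Ccl4 UMIs. Ccl5 sat in T and NK cells and, in the shCtrl library, mostly in B16-F10 cells. Xcl1 was an NK and T cell transcript, Ccr1 a phagocyte transcript and Xcr1 a dendritic cell transcript. Such shares move with the number of cells caught: in a summed library, fewer cells of a class and less RNA per cell cannot be told apart. The comparisons therefore use levels within a class.

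**Figure D1:**
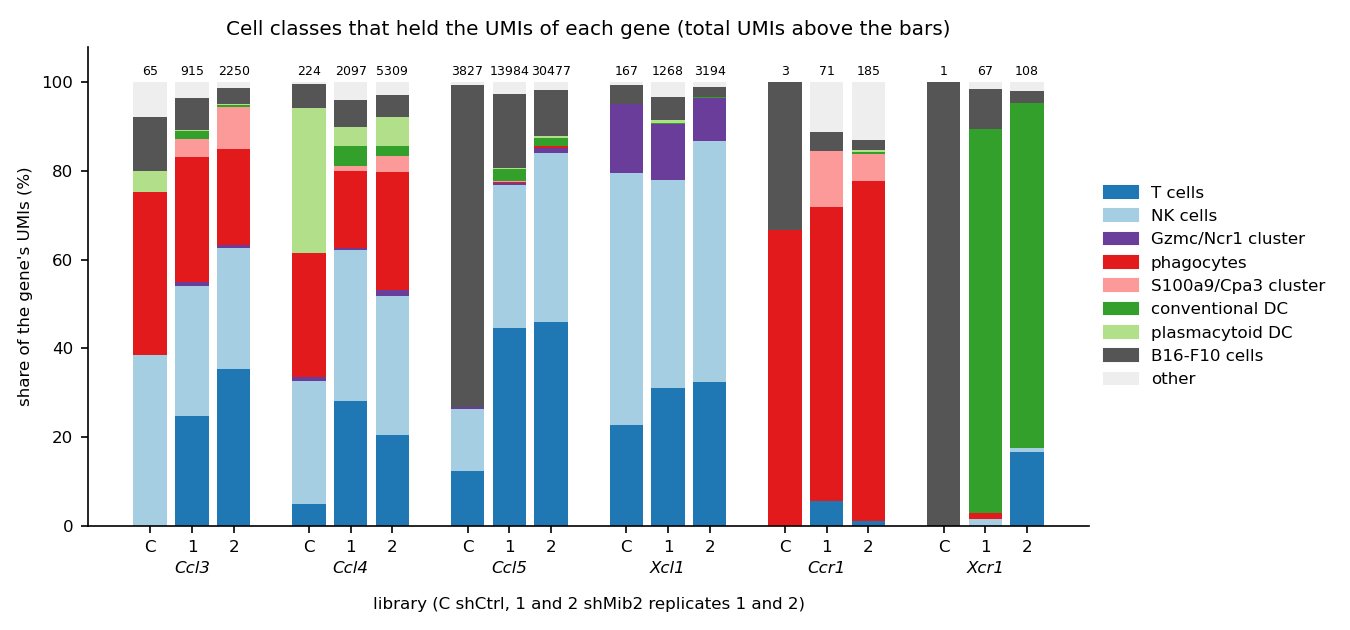
Stacked bars give the share (%) of each gene's UMIs held by each cell class in each library (C, shCtrl; 1 and 2, shMib2 replicates 1 and 2), with total UMIs above the bars. T and NK cells (blues) and phagocytes (red) hold most Ccl3 and Ccl4 UMIs of the shMib2 libraries, B16-F10 cells (dark grey) hold 72.6% of the Ccl5 UMIs of the shCtrl library, and conventional dendritic cells (green) hold most Xcr1 UMIs of the shMib2 libraries.

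Among the named classes, Ccl3 was highest in phagocytes, at 1058, 1820.5 and 894 CPM, followed by NK cells at 408, 569 and 502 CPM. These 2 ranges did not overlap, although the shCtrl phagocytes were 7 cells with 24 UMIs. T cells were lower, at 0, 183 and 269.5 CPM, and plasmacytoid dendritic cells read 119, 67.9 and 77.3 CPM on 3, 3 and 9 UMIs, which overlapped the T cell range. Conventional dendritic cells of the shMib2 libraries held 71.3 and 37.6 CPM, and the 62, 77 and 126 B cells held 0, 0 and 3 UMIs. Ccl3 was seen in 23.7, 30.4 and 35.1% of NK cells. After thinning each cell to 1000 UMIs, the shares were 20, 25.1 and 25.7%, against 0, 6.71 and 6.78% of T cells and 0, 0 and 1.65% of B cells. Only 8, 11 and 121 B cells were deep enough to be thinned.

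Ccl4 followed a similar order with one difference. Plasmacytoid dendritic cells (2887, 1993 and 2894 CPM) and phagocytes (2778, 2537 and 2589.7 CPM) were the highest named classes, with overlapping ranges. In the shCtrl phagocytes, 56 of 63 Ccl4 UMIs came from 1 of the 7 cells, so the shCtrl level rests on that cell. NK cells read 1012, 1506 and 1359 CPM, conventional dendritic cells of the shMib2 libraries 447 and 445 CPM and T cells 73.7, 479 and 366 CPM. The dendritic values fell inside the T cell range, and B cells held 0, 3 and 4 Ccl4 UMIs. Plasmacytoid dendritic cells, the specialised producers of type I interferon, therefore held 73, 88 and 337 Ccl4 UMIs beside 3, 3 and 9 Ccl3 UMIs, whereas phagocytes held 63, 361 and 1411 beside 24, 259 and 487.

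**Figure D2:**
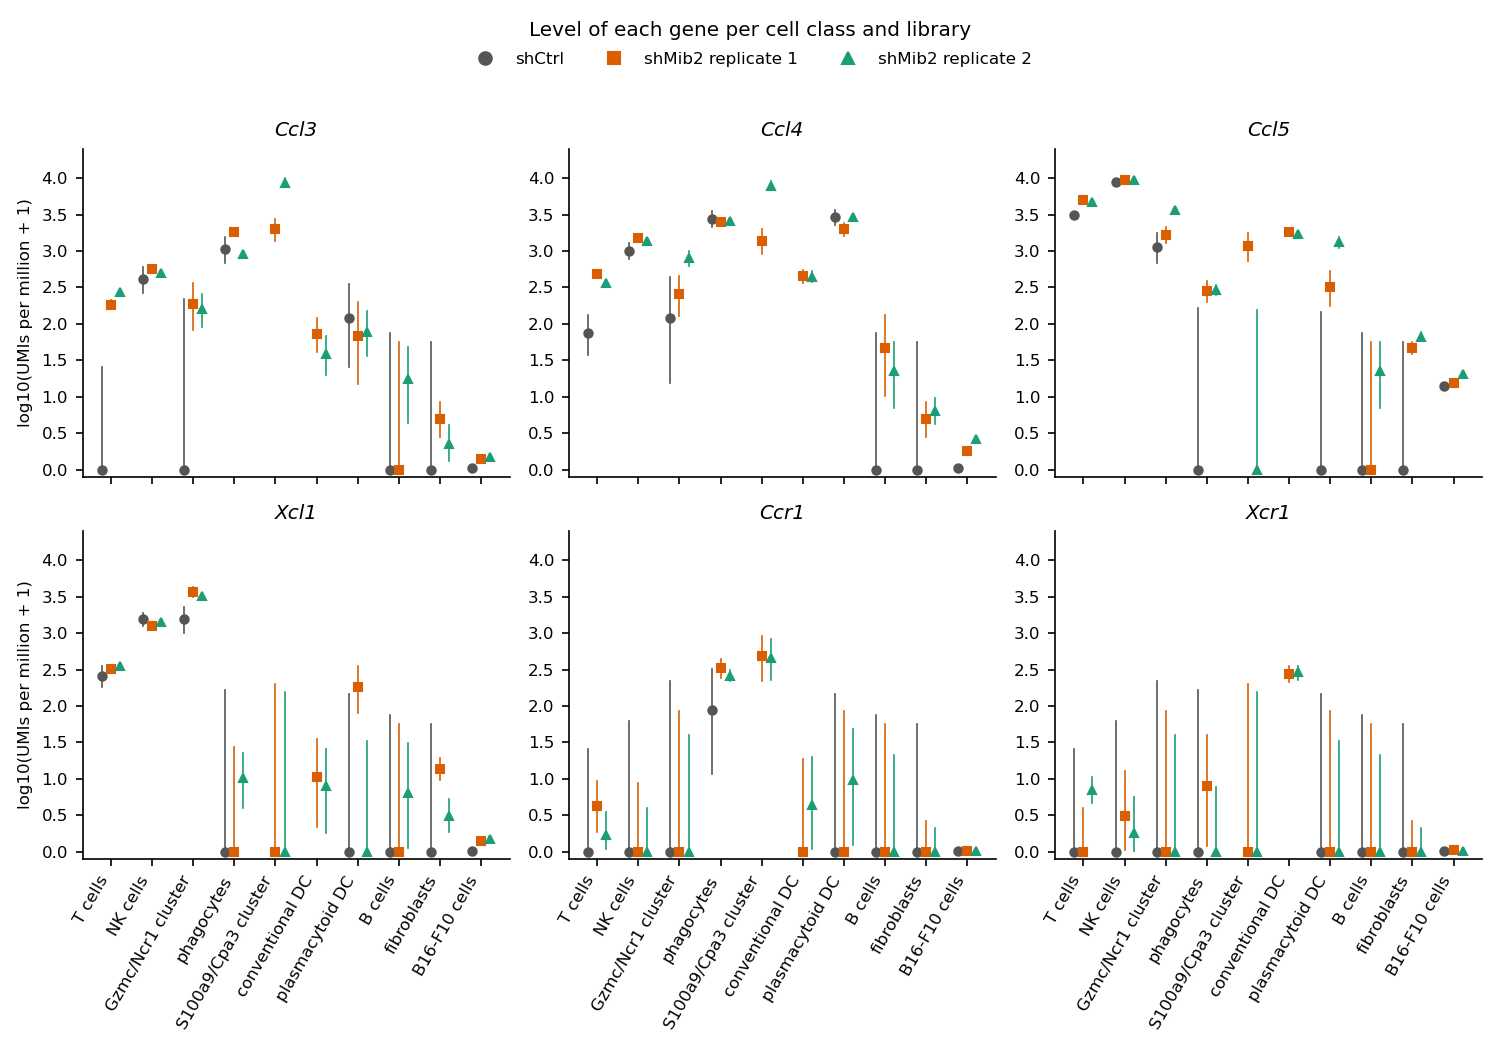
Each panel plots log10(CPM + 1) of a gene by cell class, one point per library with at least 5 cells of that class, and bars give the exact 95% Poisson interval of the count. The Gzmc/Ncr1 and S100a9/Cpa3 clusters carry no class name. Ccl5 is highest in NK cells (8765 to 9503 CPM), Xcl1 in NK cells and the Gzmc/Ncr1 cluster, Ccr1 in phagocytes and the S100a9/Cpa3 cluster, and Xcr1 in conventional dendritic cells.

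NK cells held more of all 4 ligand transcripts than T cells of the same libraries. In edgeR's quasi-likelihood test on UMIs summed per class and library, with library as a term and Benjamini-Hochberg adjustment, the log2 difference was 1.28 ± 0.11 (SE) for Ccl3, with an adjusted p of 6.19e-29. It was 1.88 ± 0.11 (SE) for Ccl4 (adjusted p 9.99e-64), 1.03 ± 0.11 (SE) for Ccl5 (2.23e-17) and 2.04 ± 0.11 (SE) for Xcl1 (9.74e-76). Of the 7710 genes tested, 9.74% were called higher and 9.46% lower in NK cells, and 4 of 4 tested members were called higher. Ccr1 and Xcr1 did not pass the count filter. DESeq2 gave an adjusted p of 0.583 for Ccl3, with a log2 difference of 2.65, and kept the other 3 calls.

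Phagocytes and T cells each held more of different ligand transcripts. Relative to T cells, phagocytes were higher in Ccl3 (log2 difference 2.99 ± 0.34 (SE), edgeR adjusted p 4.87e-17), in Ccl4 (3.10 ± 0.34 (SE), 1.15e-18) and in the receptor Ccr1 (7.56 ± 0.40 (SE), 2.79e-74). They were lower in Ccl5 (-4.33 ± 0.38 (SE), 9.52e-29) and Xcl1 (-5.54 ± 0.50 (SE), 1.50e-27). All 5 tested members were thus called, where 24.9% of 5317 genes were called higher and 24.2% lower. The NK markers read 0 in the phagocytes of all 3 libraries, and the T cell markers 0, 148 and 51.4 CPM. B16-F10 markers summed to 7011, 956 and 804 CPM there, beside 7805, 13952 and 16994 CPM for the phagocyte markers, so melanoma RNA was high in the 7 shCtrl phagocytes, and its part in these differences was not tested.

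Between the 2 T cell gates, all 4 ligand transcripts were higher in CD8 T cells. Cells with a Cd8a or Cd8b1 UMI and none of Cd4 or Foxp3 (25, 193 and 308 cells) were set against cells with Cd4 or Foxp3 and no CD8 UMI (6, 44 and 80 cells). Foxp3 marks regulatory T cells. The rest of the second gate held Cd4 and no Foxp3 UMI, as helper T cells do, and may include cells in which Foxp3 was missed. Ccl4 read 149, 841 and 550.3 CPM in CD8 T cells and 64.1, 63.0 and 64.9 CPM in CD4 or Foxp3 T cells, on 1, 7 and 19 UMIs in the second gate. Ccl3 read 0, 325 and 493 against 0, 9.0 and 44.4 CPM, and Xcl1 193, 245 and 195 against 0, 9.0 and 23.9 CPM. The gates overlapped at 0 for Ccl3 in the shCtrl library, and did not overlap for Xcl1.

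Ccl5 was the exception in kind, since both gates held it: 2991, 6063 and 5391 CPM in CD8 T cells and 1731, 1827 and 2106 CPM in CD4 or Foxp3 T cells. Of the 20 and 40 cells of the Foxp3 gate in shMib2 replicates 1 and 2, 75 and 65% held a Ccl5 UMI. The log2 difference between gates was 3.82 ± 0.32 (SE) for Ccl3, 3.36 ± 0.26 (SE) for Ccl4, 1.57 ± 0.14 (SE) for Ccl5 and 3.58 ± 0.41 (SE) for Xcl1. The edgeR adjusted p values were 1.08e-30, 1.85e-34, 1.11e-26 and 1.63e-16. All 4 tested members were called higher in CD8 T cells, against 5.28% of 3410 genes called higher and 5.16% lower. DESeq2 did not call Ccl3 (log2 difference 3.23, adjusted p 0.404).

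CD8 T cells split further by their checkpoint receptor transcripts (Pdcd1, Lag3, Havcr2 or Tigit), which rise on activation and in exhaustion. Cells with a UMI of these genes numbered 6, 106 and 158 and cells without 19, 87 and 150. Ccl3 read 0, 438 and 670.0 CPM with and 0, 28.8 and 99.4 CPM without them. In the 2 shMib2 libraries 42.5 and 46.2% of cells with checkpoint transcripts held Ccl3, against 2.30 and 10.7% of those without, and 24.3 and 20.9% against 0 and 7.48% after thinning. Ccl4 read 94.7, 1065 and 652 against 197, 253 and 324 CPM, so the shCtrl library, on 3 and 7 UMIs, ran the other way from the shMib2 libraries. Ccl5 was level across the split, at 2904, 6371 and 5482 against 3068, 5257 and 5187 CPM. Xcl1 did not share one direction, with 126, 271 and 141 CPM in cells with and 253, 179 and 316 CPM in cells without checkpoint transcripts.

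The log2 difference was 2.71 ± 0.22 (SE) for Ccl3 (edgeR adjusted p 4.54e-32), 1.09 ± 0.15 (SE) for Ccl4 (3.55e-11) and -0.80 ± 0.18 (SE) for Xcl1 (0.000144). For Ccl5 it was -0.11 ± 0.08 (SE), with an adjusted p of 0.385. Thus 2 of 4 members were called higher and 1 lower, where 11.9% of 4412 genes were called higher and 14.1% lower. The Ccl4 call ended in DESeq2 (adjusted p 0.223) and without shMib2 replicate 1 (edgeR adjusted p 0.182). The Xcl1 call ended in DESeq2 (0.433), and its direction turned without shMib2 replicate 2 (log2 difference 0.14). Cells with checkpoint transcripts were also deeper, with medians of 3929, 3086.5 and 4576 against 1712, 1843 and 2841.5 UMIs, whose part in the CPM differences was not tested.

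Xcl1 was also present outside these gates. T cells with no UMI of Cd8a, Cd8b1, Cd4 or Foxp3 (49, 314 and 422 cells) held Xcl1 at 376, 506 and 642 CPM, above the CD8 gate of the same library in each case, and Ccl3 at 0, 44.9 and 22.2 CPM. These cells were shallow, with medians of 1298, 1253.5 and 2219 UMIs, so the gate mixes cells that lack the genes with cells in which they were missed.

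**Figure D3:**
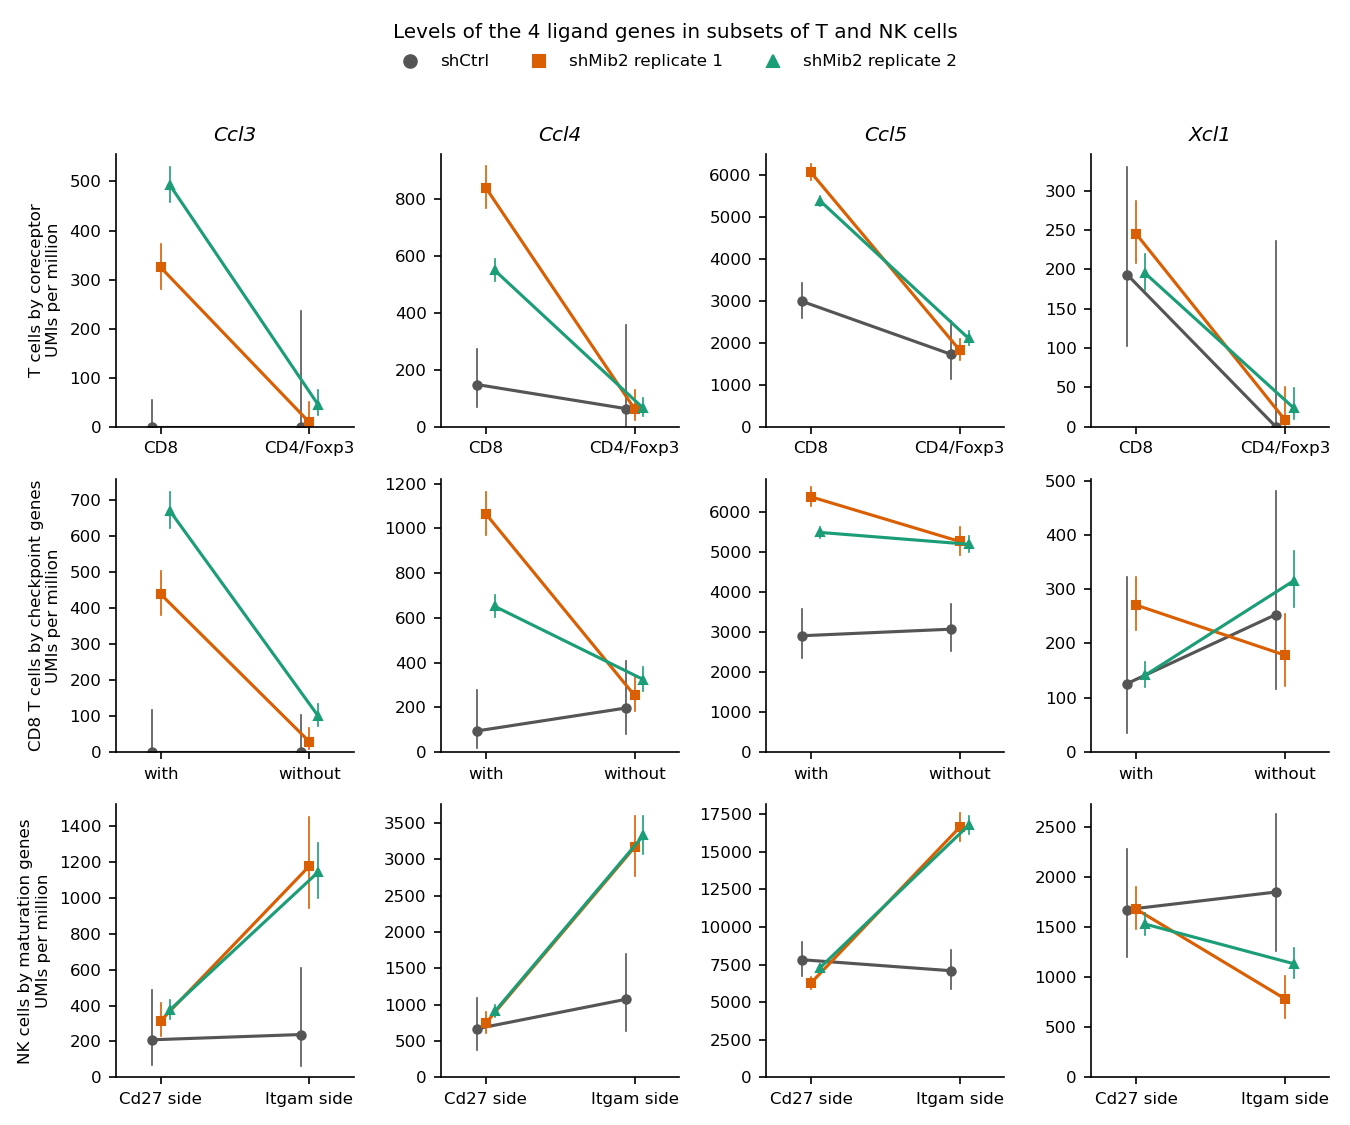
CPM of the 4 ligand genes (columns) in paired subsets of T and NK cells (rows), with 1 line per library and exact 95% Poisson intervals. In both shMib2 libraries, Ccl3 and Ccl4 fall from CD8 to CD4 or Foxp3 T cells. They rise from the Cd27 to the Itgam side of NK cells in those libraries, while Xcl1 falls between these NK sides.

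NK cells were split by maturation. Less mature mouse NK cells express Cd27, Ltb, Tcf7 and Il7r, and mature ones Itgam, Klrg1, Zeb2 and S1pr5. Cells with UMIs of the first set only numbered 15, 87 and 188, and cells with UMIs of the second set only 8, 58 and 87. Ccl3 read 209, 315 and 374 CPM on the Cd27 side and 239, 1177 and 1143 CPM on the Itgam side. Ccl4 read 669.6, 746 and 907 against 1073, 3165 and 3328 CPM. Ccl5, which most NK cells held, read 7826, 6280.5 and 7285 against 7096, 16634 and 16768 CPM. The shMib2 libraries showed large gaps for these 3 genes and the shCtrl library, with 8 Itgam-side cells, small or opposite ones.

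Xcl1 had the opposite pattern. It read 1674, 1678 and 1529 CPM on the Cd27 side and 1848, 784 and 1133 CPM on the Itgam side, lower on the Itgam side in both shMib2 libraries and not in the shCtrl library. Log2 differences of the Cd27 side against the Itgam side were -1.61 ± 0.17 (SE) for Ccl3, -1.82 ± 0.16 (SE) for Ccl4, -0.89 ± 0.17 (SE) for Ccl5 and 0.61 ± 0.16 (SE) for Xcl1, with edgeR adjusted p values of 3.57e-19, 1.13e-26, 2.57e-05 and 0.00861. So 3 of 4 members were called lower and 1 higher, where only 1.17% of 1973 genes were called lower and 0.76% higher. Without shMib2 replicate 1, the adjusted p was 0.216 for Ccl3 and 0.216 for Ccl4, with log2 differences of -1.43 and -1.54. DESeq2 kept both and lost Ccl5 and Xcl1 (adjusted p 0.855 and 0.999). Leaving out either shMib2 library ended the Ccl5 and Xcl1 calls.

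The libraries labelled shMib2 held more Ccl3 and Ccl4 in T cells than the library labelled shCtrl. Ccl4 was held by 7.50, 20.8 and 23.0% of T cells, or 3.03, 14.1 and 12.9% after thinning to 1000 UMIs, with a 95% Wilson interval of 3.48 to 15.4% for the unthinned shCtrl share. Its level was 6.49 and 4.97 times the shCtrl level in shMib2 replicates 1 and 2. Ccl3 had no UMI in the 80 shCtrl T cells, and a count of 0 allows up to 3.75% of such cells to have a detected UMI, which does not limit the cells that express the gene at this depth. Set against a floor of 3 UMIs for that library (20.1 CPM), the mean shMib2 level was 11.3 times as high. The 95% Poisson limit of the 0 count lay above that floor, at 24.7 CPM, so the fold is not a lower bound. Ccl5 read 3162, 5054 and 4751 CPM and Xcl1 255, 319 and 351 CPM.

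The edgeR fit gave a log2 difference of 2.42 ± 0.28 (SE) for Ccl4 (adjusted p 1.69e-08), 0.54 ± 0.12 (SE) for Ccl5 (0.00491) and 0.31 ± 0.21 (SE) for Xcl1 (0.636). The adjusted p of Ccl3 was 8.73e-09, and its fitted fold is not given because the shCtrl count was 0. With 1 shCtrl library, the fit assumes that it varies like the shMib2 libraries. Of 4 members, 3 were called higher, where 0.547% of 8593 genes were called higher and 0.663% lower. The calls of Ccl3 and Ccl5 ended in DESeq2 (adjusted p 0.406 and 1), which kept Ccl4 (0.03).

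All 3 calls also ended when cells were classed one by one on marker UMIs rather than by cluster, with edgeR adjusted p values of 0.22 for Ccl3, 0.051 for Ccl4 and 0.22 for Ccl5. In that class, 83, 560 and 811 cells held 11, 259 and 811 Ccl3 UMIs, and 1 shCtrl cell held all 11 of that library. Part of the makeup of the T cell class moved with the labels. CD8 cells were 31.2, 34.6 and 37.5% of T cells, and cells with checkpoint transcripts 24, 54.9 and 51.3% of CD8 T cells. NK markers summed to 208, 225 and 259 CPM in T cells, with Ncr1, Klra8 and Klra4 at 0 in the shCtrl library, and phagocyte markers to 0, 10.5 and 27.4 CPM, with all 11 at 0 in the shCtrl library. The part of these in the difference was not tested.

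By subset, the Ccl4 levels given above were 94.7 CPM in shCtrl against 1065 and 652 CPM in CD8 T cells with checkpoint transcripts, 197 against 253 and 324 CPM in those without, and 64.1 against 63.0 and 64.9 CPM in CD4 or Foxp3 T cells, where shCtrl held 1 UMI. No test was run within these gates, which held 6, 19 and 6 shCtrl cells.

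NK cells showed no called difference between labels. Ccl3 read 408, 569 and 502 CPM, Ccl4 1012, 1506 and 1359 CPM, Ccl5 8765, 9503 and 9445 CPM and Xcl1 1551, 1261 and 1414 CPM. The log2 differences of shMib2 against shCtrl were 0.42 ± 0.24 (SE), 0.53 ± 0.18 (SE), 0.14 ± 0.12 (SE) and -0.18 ± 0.18 (SE), with edgeR adjusted p values of 0.742, 0.742, 0.802 and 0.842. None of 4 members was called, where 0.0164% of 6096 genes were called higher and 0% lower, and DESeq2 called none. At an unadjusted p under 0.05, 1 of the 4 members, Ccl4, and 356 of all tested genes passed in edgeR.

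The difference between these label effects was tested as an interaction. It was called for Ccl4, whose log2 difference between labels in NK cells minus that in T cells was -1.72 ± 0.32 (SE) (edgeR adjusted p 0.0112), and for Ccl3 (8.43e-06, with no fold for the same reason). Ccl5 gave -0.24 ± 0.06 (SE) (0.497) and Xcl1 -0.33 ± 0.23 (SE) (0.769). Thus 2 of 4 members were called lower, against 0.125% of 8830 genes called lower and 0.702% higher. DESeq2 gave adjusted p values of 1 and 1 for Ccl3 and Ccl4, and classing cells one by one 0.933 and 0.695.

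In phagocytes, neither Ccl3 nor Ccl4 was called different between macrophages with C1q transcripts and the others. In shMib2 replicates 1 and 2, Ccl3 read 1042 and 736 CPM in cells with at least 2 C1q UMIs (33 and 79 cells) and 2462 and 1002 CPM in the others (43 and 81 cells), and Ccl4 1975 and 2637 against 3001 and 2557 CPM. The log2 difference was -0.75 ± 0.24 (SE) for Ccl3 (edgeR adjusted p 0.262) and -0.19 ± 0.20 (SE) for Ccl4 (0.736), and it was 1.00 ± 0.78 (SE) for Ccl5 (0.651) and -0.37 ± 0.31 (SE) for Ccr1 (0.669). None of the 4 tested members was called in these 2 libraries, where 0.451% of 2219 genes were called higher and 0.0901% lower. DESeq2 called none of them either, and at an unadjusted p under 0.05 in edgeR 1 of the 4 passed, Ccl3.

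A small cluster with no class name held the highest Ccl3 level of all, which was clear only in shMib2 replicate 2. It was led by S100a9, S100a8, Cxcl2, Cma1 and Cpa3, genes of neutrophils and mast cells, with 14 and 24 cells in shMib2 replicates 1 and 2 and 1 cell in shCtrl. Ccl3 read 1974 and 8679 CPM there and Ccl4 1387 and 7848 CPM, on 37 and 209 and 26 and 189 UMIs. The Ccl3 value of shMib2 replicate 1 lay inside the phagocyte interval of that library, 1605.5 to 2056 CPM. The libraries did not agree in level for either gene, and the median depth was 783 UMIs per cell.

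Ccl5 was held by most lymphocytes of both kinds. It was found in 94.7, 92.2 and 94.4% of NK cells and 57.5, 70.4 and 76.4% of T cells, with 0, 0 and 4 UMIs in the B cells. Thinned shares were 90, 87.9 and 92.2% of NK cells, 63.6, 66.7 and 70.1% of T cells and 0, 0 and 1.65% of B cells. The B cell shares rest on the 8, 11 and 121 B cells deep enough to be thinned. Median depths were 1341.5, 1293 and 2169 UMIs in NK cells, 1502.5, 1481.5 and 2648 in T cells and 798.5, 804 and 1392.5 in B cells. NK cell levels of 8765, 9503 and 9445 CPM lay above T cell levels of 3162, 5054 and 4751 CPM in every library. Phagocytes held 0, 40 and 157 UMIs, or 0, 281 and 288 CPM.

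Among conventional dendritic cells, Ccl5 marked those with migratory transcripts. Cells with at least 2 UMIs of Fscn1, Il4i1, Cacnb3 and Nudt17, genes of dendritic cells on their way to lymph nodes, held 13518 and 7423 CPM in shMib2 replicates 1 and 2. All of these 6 and 12 cells held Ccl5. Cells on the cDC1 side (Clec9a, Cadm1 or Tlr3) held 236 and 857 CPM, with Ccl5 in 15.8 and 7.69% of 19 and 26 cells. The other dendritic cells held 1 and 3 Ccl5 UMIs in 12 and 6 cells. No test was run between these gates.

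B16-F10 cells held Ccl5 in a minority that stood apart from the rest. The class had 2778, 2343 and 3201 Ccl5 UMIs, which were 72.6%, 16.8% and 10.5% of the library's Ccl5 UMIs, at 13.0, 14.4 and 19.4 CPM. These UMIs were concentrated in few cells. Of them, 89.8%, 78.7% and 83.3% sat in 83, 93 and 77 cells with at least 5 Ccl5 UMIs each, out of 7883, 6417 and 4645 cells, and the highest cell held 341, 155 and 276. The limit of 5 was chosen after the values were seen.

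Cells with at least 5 Ccl5 UMIs kept melanoma RNA. Dct read 7947, 6609.5 and 7968 CPM in them and 7974, 7444 and 8806 CPM in B16-F10 cells with no Ccl5 UMI. Interferon-induced genes read more in them in every library. Ifit1, an antiviral effector, read 161, 128 and 276 CPM against 3.97, 7.53 and 6.95. The chemokine gene Cxcl10 read 346, 394 and 1016 CPM against 38.1, 57.1 and 46.6. Other such genes had small gaps in the shCtrl library. There Irf7 read 1.56 against 1.10 CPM, on 4 UMIs in the cells with at least 5 Ccl5 UMIs. H2-K1 read 52.5 against 40.0 CPM there and B2m 284 against 213 CPM. A UMI of Cd3e, Cd3g, Ncr1, Nkg7 or Ptprc, genes of lymphocytes and leukocytes, was present in 0.475%, 2.73% and 5.06% of cells with no Ccl5. The shares were 3.61%, 32.3% and 31.2% of the cells with at least 5 Ccl5 UMIs. In the shCtrl library 2447 of the 2494 Ccl5 UMIs of these cells came from cells without such a UMI, and in the shMib2 libraries 1468 of 1845 and 2116 of 2667. A B16-F10 cluster led by interferon-induced genes (80, 287 and 169 cells) held 20.7%, 27.9% and 33.9% of the Ccl5 UMIs of the class. Cells were not replicates and no test was run.

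**Figure D4:**
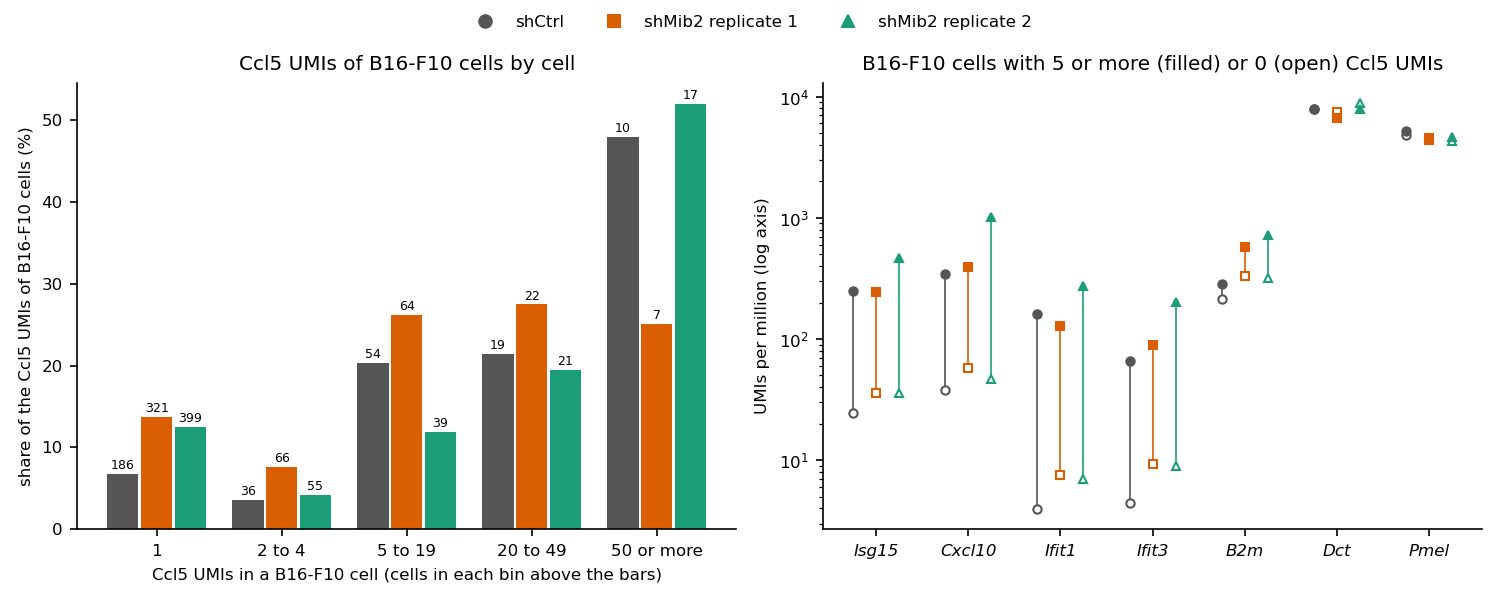
Left, share (%) of the Ccl5 UMIs of B16-F10 cells by the number of Ccl5 UMIs in a cell, with the number of cells above each bar. Right, CPM on a log axis of interferon-induced genes (Isg15, Cxcl10, Ifit1, Ifit3), B2m and 2 pigment genes (Dct, Pmel) in B16-F10 cells with at least 5 (filled) or 0 (open) Ccl5 UMIs, by library. Cells with 50 or more UMIs hold 48.0%, 25.1% and 52.0% of the UMIs, and the interferon-induced genes part while Dct and Pmel stay close.

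Xcl1 lay mainly in lymphocytes. NK cells held 1551, 1261 and 1414 CPM and T cells 255, 319 and 351 CPM, with no overlap. Phagocytes held 0, 0 and 5 UMIs, B cells 0, 0 and 1 and plasmacytoid dendritic cells 0, 8 and 0. It was found in 65.8, 59.5 and 68.5% of NK cells and 20, 24.0 and 30.1% of T cells, or 63.3, 54.3 and 52.2% and 16.7, 18.3 and 18.8% after thinning. The level in NK cells was highest in the shCtrl library, and its interval of 1255 to 1896 CPM contained both shMib2 values.

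A second cluster without a class name exceeded NK cells in Xcl1. Its other leading genes were Gzmc, Ncr1, Krt83 and Klrb1b, and Xcl1 took no part in the clustering. It held 7, 20 and 36 cells, with Ncr1 at 538, 672 and 483 CPM and Cd3e at 0, 0 and 10.5 CPM. Xcl1 read 1554, 3709 and 3221 CPM in it and was present in 100, 95 and 100% of its cells. In the shMib2 libraries this was above the NK class, and in shCtrl close to it. Ccl5 read 1136, 1669 and 3631 CPM, below the NK class in every library, and Ccl3 0, 185 and 157 CPM.

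The receptor Ccr1 was a transcript of phagocytes. It read 88.2, 330.4 and 261 CPM there, on 2, 47 and 142 UMIs, and was found in 28.6, 36.8 and 43.1% of the cells, or 16.7, 24.6 and 27.6% after thinning. The S100a9/Cpa3 cluster held 480.2 and 457 CPM in the shMib2 libraries, with intervals that covered the phagocyte values, and a cluster led by Il1b and H2-Aa, also without a class name, held 101 and 88.7 CPM. NK cells and B cells held no Ccr1 UMI, and in the largest NK library a count of 0 allows up to 0.647% of 464 cells with a detected UMI, which likewise does not limit the cells that express it. T cells held 0, 4 and 2 UMIs, of which 3 of 4 and 1 of 2 lay in the Foxp3 gate of the shMib2 libraries.

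Xcr1 had the fewest UMIs of the 6 genes. The libraries held 1, 67 and 108 Xcr1 UMIs in 1, 28 and 31 cells, of which 0, 19 and 21 cells were conventional dendritic cells. In that class Xcr1 read 276 and 287 CPM in the shMib2 libraries, and on the cDC1 side 380.1 and 369 CPM, with a UMI in 73.7 and 73.1% of 19 and 26 cells (95% Wilson intervals 51.2 to 88.2% and 53.9 to 86.3%). Dendritic cells outside both gates held 152 and 122 CPM, in 5 and 2 of 12 and 6 cells, and cells of the migratory gate held none (6 and 12 cells). The single shCtrl dendritic cell held none either. A single T cell of mixed gate in shMib2 replicate 2 held 15 of the 18 Xcr1 UMIs of its class. Xcr1 was too sparse for any comparison and Ccr1 entered only those of phagocytes, as members below the count filter were not tested.

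In NK and T cells, Ccl3 and Ccl4 met in the same cells. After thinning, 66.7, 66.1 and 73.9% of the NK cells with Ccl3 also held Ccl4, which was 2.22, 1.58 and 1.68 times the number that independent occurrence in that library would give. In CD8 T cells of the shMib2 libraries the share was 72 and 54.5%, and in phagocytes 33.3, 85.2 and 81.4% of 3, 27 and 43 cells with Ccl3. These CD8 and phagocyte shares are given without the ratio to independent occurrence, so they do not show joint occurrence beyond it. In T cells as a class the ratio to independence was 4.73 and 4.01 for Ccl3 with Ccl4 and 0.545 and 0.491 for Ccl3 with Xcl1 in the shMib2 libraries. T cells with Ccl3 thus held Ccl4 more often and Xcl1 less often than independent occurrence would give, as a description without a test. In NK cells the Ccl3 and Xcl1 ratio was 1.32, 1.05 and 0.782.

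Other genes of the pathway were counted from fixed lists. Ligand genes of the same CC family were phagocyte transcripts. Against T cells, 6 of 6 tested were called higher in phagocytes, where 24.9% of all genes were. Their median log2 difference was 6.91 against -0.10 over all genes. They included Ccl8 (7.45), Ccl12 (9.24), Ccl7 (6.15) and Ccl6 (8.96). Between C1q phagocytes and the others, 3 of 6 were called higher, where 0.451% of all genes were. These were Ccl8 (4.93, edgeR adjusted p 0.00278), Ccl12 (2.84, 0.0112) and Ccl7 (1.95, 0.0139), unlike Ccl3 and Ccl4. The receptor gene Ccr2 was lower in the CD8 gate than in CD4 or Foxp3 T cells (-1.19, adjusted p 0.00451).

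Within T and NK cells, cytotoxic granule genes often went with Ccl3 and Ccl4. Phagocytes, which were higher in Ccl3 and Ccl4 than T cells, were lower in 7 of 7 granule genes tested. Their median log2 difference was -6.25, and 24.2% of all genes were called lower there. In CD8 against CD4 or Foxp3 T cells 7 of 7 tested were called higher, where 5.28% of all genes were, with a median of 2.04 against 0.01 over all genes. In CD8 T cells with checkpoint transcripts 6 of 8 were higher and 1 lower, where 11.9% of all genes were higher and 14.1% lower. Gzmb was at 1.80, Prf1 at 3.24 and Gzma at -2.28. On the Cd27 side of NK cells 4 of 6 were lower and 1 higher, where 1.17% of all genes were lower and 0.76% higher. Gzmb was at -2.12, Prf1 at -1.29 and Gzmc, like Xcl1, in the other direction at 1.59. In the label comparison of T cells 4 of 8 were called higher, where 0.547% of all genes were, with a median of 1.92 against 0.11 over all genes. They included Gzmb (2.35, edgeR adjusted p 4.98e-10) and Gzma (2.12, 0.00309). In NK cells 0 of 7 were called, where 0.0164% of all genes were higher. The median of a list that holds genes at 0 in the shCtrl library, such as Gzmc in T cells, depends on the fit.

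Cytokine genes made on activation were called in both directions. Ifng, which encodes interferon gamma, was called higher in T cells of the libraries labelled shMib2 (1.14, edgeR adjusted p 0.0283; 1 of 6 tested), in CD8 T cells against CD4 or Foxp3 T cells (3.16, 1.71e-23) and in CD8 T cells with checkpoint transcripts (1.17, 1.31e-08). On the Cd27 side of NK cells it was lower (-0.84, 0.00157). Ltb, which encodes lymphotoxin beta, ran against Ifng: it was lower in CD8 than in CD4 or Foxp3 T cells (-1.14, 2.16e-10; these were the 2 genes tested) and in CD8 T cells with checkpoint transcripts (-0.59, 0.000449; 3 tested). On the Cd27 side, where it is a gate gene, it was the other of 2 genes tested and higher. Of 13 genes of activation tested between labels in T cells, 1 was called higher, Nr4a2 (1.34, edgeR adjusted p 0.00178), which T cell receptor signals induce. Between labels in T cells, 0.547% of all genes tested were called higher and 0.663% lower. In CD8 T cells with checkpoint transcripts, 3 of 11 were higher and 7 lower, among them Bhlhe40 (1.58) and Cd69 (-2.61), where 11.9% of all genes tested were higher and 14.1% lower. Of other chemokine axes, Ccr7, the lymph node homing receptor, was the 1 of 8 tested that was called lower in T cells between labels (-1.83, 5.80e-05). In CD8 T cells with checkpoint transcripts 1 of 5 tested was higher, Cxcr6 (1.53, 4.15e-11), and 3 were lower, Cxcr4 (-2.48, 1.27e-11), Cxcr3 (-1.50, 7.52e-07) and Ccr7 (-1.32, 1.35e-05). Of the 10 cross-presenting dendritic cell genes listed, 5 passed the filter between phagocytes and T cells and 5 of 5 were higher in phagocytes, where 24.9% of all genes tested were higher, and Irf8 was also higher in NK than in T cells (2.96, 4.54e-136).

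The genes whose level over 24 class and library sums was most like each member were named by Pearson's r on log2(CPM + 1), as a description in which the sums share libraries, depth and free melanoma RNA. For Ccl3 these were Ccr2 (0.91), Pycard (0.90) and Ccrl2 (0.89), and for Ccl4 Itgb2 (0.94), Nlrc5 (0.93) and Ccdc88b (0.92). For Ccl5 they were Klrk1 (0.93), Nkg7 (0.92) and Rinl (0.92), and for Xcl1 Klra1 (0.94), Klra7 (0.93) and Sh2d1a (0.93), of which the 2 Klra genes have near-identical family members that counting can mix. Ccr1 was most like Acod1, Pla2g7 and Ccl12 (0.97, 0.97 and 0.96), and Xcr1 most like Gcsam, Sept3 and Gpr141b (0.95, 0.95 and 0.95). Among members, Ccl3 and Ccl4 were the closest pair (0.88).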

How the data were processed

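Tumors were dissociated and sequenced on a 10x Chromium 5′ kit, and what the authors deposited are UMI counts of each gene in each barcode, not normalized, made with Cell Ranger 4.0.0 per the file headers and mm10 per the labels. Barcodes under 200 genes or over 20% mitochondrial UMIs were dropped, and predicted doublets were removed. Cells of all libraries were clustered together (scanpy 1.11.5, Leiden, resolution 1, 30 principal components, 2000 variable genes) without 67 chemokine and chemokine receptor genes, and clusters were named by marker lists. Subsets were gated on at least 1 UMI of the genes named in the text, and C1q and migratory gates on at least 2. Counts were summed per class and library and tested with edgeR 4.0.16 (quasi-likelihood, TMM, filterByExpr, R 4.3.3), with Benjamini-Hochberg adjustment over all genes tested and a threshold of 0.05. Class comparisons had library as a term and needed at least 5 cells per class and library. DESeq2 1.42.0 and other settings were alternatives. Thinned shares took 1000 UMIs per cell and left out shallower cells. Scripts were tested on simulated data. The 6 genes, the gates and the gene lists were chosen with earlier results of these data known, and of each list the genes with the lowest p values were named. Each library pools mice, so pools and not mice are the replicates. Each edgeR SE was calculated back from the test, as the absolute log2 difference over the square root of its F statistic. It is therefore not a separately measured spread between libraries. The p values and SEs come from few sums per fit and a dispersion shared across genes. They can therefore understate how far a single gene varied between libraries. Sequences were copied from RefSeq promoters (GRCm38.p6), which held Ccl3, Xcl1, Ccr1 and Xcr1, but not Ccl4 and Ccl5. Gene positions are those of the mm10 annotation. A result on 1 further gene of a list is not reported here.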

Additional observations from a re-analysis of the deposited data

Results flagged for a closer look

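The change of Ccl3 and Ccl4 between the libraries labelled shMib2 and shCtrl differed between NK and T cells, by the test of the difference itself. For Ccl3 the edgeR adjusted p was 8.43e-06, with 0 UMIs in shCtrl T cells and 25 in shCtrl NK cells. For Ccl4 the adjusted p was 0.0112 and the log2 difference -1.72 ± 0.32 (SE), with 11 UMIs in shCtrl T cells and 62 in shCtrl NK cells. DESeq2 gave an adjusted p of 1 for both, and classing cells one by one on marker UMIs gave 0.933 for Ccl3 and 0.695 for Ccl4. With 1 shCtrl library, the label and the library cannot be told apart.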

How the results depend on the processing

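Of the 25 calls on members, 25 were kept with DESeq2's size factors in edgeR, 25 with predicted doublets kept, 25 at resolution 2, 24 without the filter on low counts, 24 with stricter cells, 24 at resolution 0.5, 19 with cells classed one by one, 16 of 19 without the library block, 9 of 11 with gates of 2 UMIs and 15 in DESeq2. The cause of the losses was not tested. Values below are log2 differences or numbers of genes called over both directions, set against 104 (labels in T cells), 1 (labels in NK cells), 73 (interaction), 1480 (NK against T cells), 2607 (phagocytes against T cells), 356 (CD8 against CD4 or Foxp3), 1148 (checkpoint split), 38 (NK sides) and 12 (C1q split) genes.

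Fitted values of Ccl3 between labels in T cells and in the interaction stand against 0 shCtrl UMIs and are no folds. DESeq2 lost Ccl3 (7.43) and Ccl5 (0.53) between labels in T cells, Ccl3 (-6.89) and Ccl4 (-1.79) in the interaction, Ccl3 between NK and T cells (2.65) and between T cell gates (3.23), Ccl4 (0.89) and Xcl1 (-0.70) in the checkpoint split, and Ccl5 (-0.81) and Xcl1 (0.56) between NK sides. It called 6 genes between labels in T cells, 0 in NK cells, 0 in the interaction, 428 between NK and T cells, 1482 between phagocytes and T cells, 110 between T cell gates, 397 in the checkpoint split and 11 between NK sides. Classing cells one by one lost Ccl3 (1.66), Ccl4 (1.47) and Ccl5 (0.44) between labels in T cells, Ccl3 (-0.31) and Ccl4 (-0.71) in the interaction and Xcl1 between NK sides (0.67). It turned Ccl3 (0.016) and Ccl4 (0.21) in the C1q split, and called 18 genes between labels in T cells, 0 in NK cells, 978 between NK and T cells, 24 between NK sides and 93 in the C1q split.

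Without the library block that pairs the classes of a library, Xcl1 was lost in the checkpoint split (-0.66) and Ccl5 (-0.92) and Xcl1 (0.54) between NK sides. That fit called 193 genes between T cell gates, 18 between NK sides and 31 in the C1q split. The block changed no other call on a member that could be tested without it. Ccl3 between T cell gates was not tested without the block or without either shMib2 library, and Ccl3 in the checkpoint split was not tested without shMib2 replicate 2, as it fell under the count filter. No paired analysis was possible because the label shCtrl has 1 library, for the comparisons between labels. Gates of 2 UMIs lost Xcl1 in the checkpoint split (-0.60) and between NK sides (0.92), and called 162 genes between T cell gates and 741 in the checkpoint split. The C1q gate had 2 UMIs throughout.

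Without the filter on low counts, Xcl1 was lost between NK sides (0.69), and 7, 35, 25 and 79 genes were called between labels in NK cells, in the interaction, between NK sides and in the C1q split. With cells held to 500 genes and 10% mitochondrial UMIs, Xcl1 was lost between NK sides (0.54). In the C1q split Ccl3 was called (-1.34) and Ccl5 turned (-1.72), with 3 genes called between labels in NK cells and 45 in the C1q split. At resolution 0.5, Xcl1 was lost between NK sides (0.64) and the C1q split turned for Ccl3 (0.58), Ccl4 (0.78), Ccl5 (-0.70) and Ccr1 (0.41), with 44 genes called between labels in T cells, 8 in NK cells and 142 in the C1q split. With doublets kept, Ccl4 (0.064) and Ccl5 (-0.043) turned in the C1q split, with 11 genes called between labels in NK cells and 22 in the C1q split. DESeq2's size factors gave 43, 6, 48 and 19 genes for labels in T cells, labels in NK cells, the interaction and the C1q split. Resolution 2 gave 2, 43 and 37 genes for labels in NK cells, the interaction and the C1q split.

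Leaving out each library in turn gave, between NK sides, -1.67 to -1.43 for Ccl3, -1.86 to -1.54 for Ccl4, -1.21 to -0.55 for Ccl5 and 0.29 to 0.71 for Xcl1. In the checkpoint split it gave 0.57 to 1.53 for Ccl4 and -1.42 to 0.14 for Xcl1. In the C1q split it gave -1.17 to -0.34 for Ccl3, -0.54 to 0.15 for Ccl4, -1.43 to 2.45 for Ccl5 and -0.70 to 0.16 for Ccr1, as values with no test. The fitted Ccl3 difference between labels in T cells was 9.97 to 11.71, which is no fold because shCtrl held 0 UMIs. Counts of genes ranged from 289 to 1850 between NK and T cells, 667 to 3429 between phagocytes and T cells, 41 to 562 between T cell gates, 323 to 1311 in the checkpoint split and 8 to 139 between NK sides. Comparisons between labels with 1 library each have no residual degrees of freedom and give values only.

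The shCtrl library limits precision: it held 80 T cells, 38 NK cells, 7 phagocytes and 1 conventional dendritic cell.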
